A study of Mus musculus with 24 samples.

Results

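The 10 genes examined here encode proteins of calcium cycling at the surface membrane and the sarcoplasmic reticulum (SR) of muscle cells. They were chosen by symbol, as *Atp2a2*, *Pln*, *Sln*, *Ryr2*, *Casq1*, *Casq2*, *Cacna1c*, *Slc8a1*, *Jph2* and *Hrc*, out of the 14912 genes of the deposited table. All 10 were present, and all 10 passed the filter of a mean of at least 0.1 FPKM over the 24 samples. FPKM is a count of fragments divided by the length of the transcript and by the size of the library. RNA from left ventricles of wild-type male C57BL/6J mice was sequenced. The hypertensive-LVH (left ventricular hypertrophy) group had received angiotensin II (ANG II), a peptide that raises blood pressure, at 1500 ng/kg/min from subcutaneous mini-pumps for 7 days. The control group had received saline for the same 7 days. There were 12 samples in each group, and no age was given. A comparison of the groups asks how a week of pressor treatment changed the ventricle, and 7 days of treatment is the only time measured.

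In the beating heart muscle cell, calcium enters through L-type channels of the surface membrane and opens ryanodine receptors of the SR, which release much more calcium. The SERCA pump returns calcium to the SR, small membrane proteins restrain the pump, and the sodium-calcium exchanger carries the rest out of the cell. Calcium-binding proteins inside the SR store the ion, and junctophilin holds the surface membrane and the SR close together at the dyad, where release is triggered. A lower amount of SERCA is a well-known feature of failing and overloaded hearts.

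The deposited values are FPKM that had been adjusted gene by gene in 4 sets of samples, each made of 3 control and 3 hypertensive-LVH samples with consecutive numbers (1 to 3, 4 to 6, 7 to 9, 10 to 12). A total of 2741 values (0.766%) were negative. Within a set the scaling could be undone for all 10 genes from the spacing of their values, under an assumed form of the adjustment. Differences within a set are therefore also given before the adjustment, while the offset between sets is unknown. The table keeps no fragment counts, and the depth behind each value is unknown. Summed over all genes, a hypertensive-LVH sample held 460715 to 515185 and a control sample 482319 to 567727. The largest sum was that of control sample 3, which also held the lowest *Ryr2*, *Cacna1c* and *Slc8a1* of all 24 samples. The labels do not say what the 4 sets were, and they hold equal numbers of both groups. Where the groups of a set are said not to overlap, only 3 samples are set against 3. How many of all genes do the same was not counted.

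In the hypertensive-LVH group 4 of the 10 genes were lower and 1 was higher. The lower genes were *Hrc*, *Atp2a2*, *Jph2* and *Pln*, with log2 fold changes from -0.53 to -0.32, and the higher gene was *Casq2*, at 0.14, whose call was lost with the set as a term (adjusted p of 0.070 in limma). These 5 of 10 passed an adjusted p of 0.05 in limma, a linear model across all genes, against 33.5% of the 14026 genes tested. In the lower direction the count was 4 of 10 against 12.6%, and in the higher direction it was 1 of 10 against 20.9%. Only *Hrc* also passed the fold threshold, an absolute log2 fold change above 0.5, against 5.92% of all genes in either direction and 1.4% in the lower one. The median log2 fold change of the 10 genes was 0.03, and that of all genes tested was 0.05. The ventricle is a mixture of cells, and in such bulk samples fewer heart muscle cells and less RNA per cell cannot be told apart. Of 12 cardiomyocyte markers, 5 were lower and 1 was higher, and their median was -0.22 on the log2 scale. Each sample was therefore also centred on those 12 markers, and the centred value is given beside each gene but *Sln*, for which it was 1.11 with an adjusted p of 0.37.

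**Figure D1:**
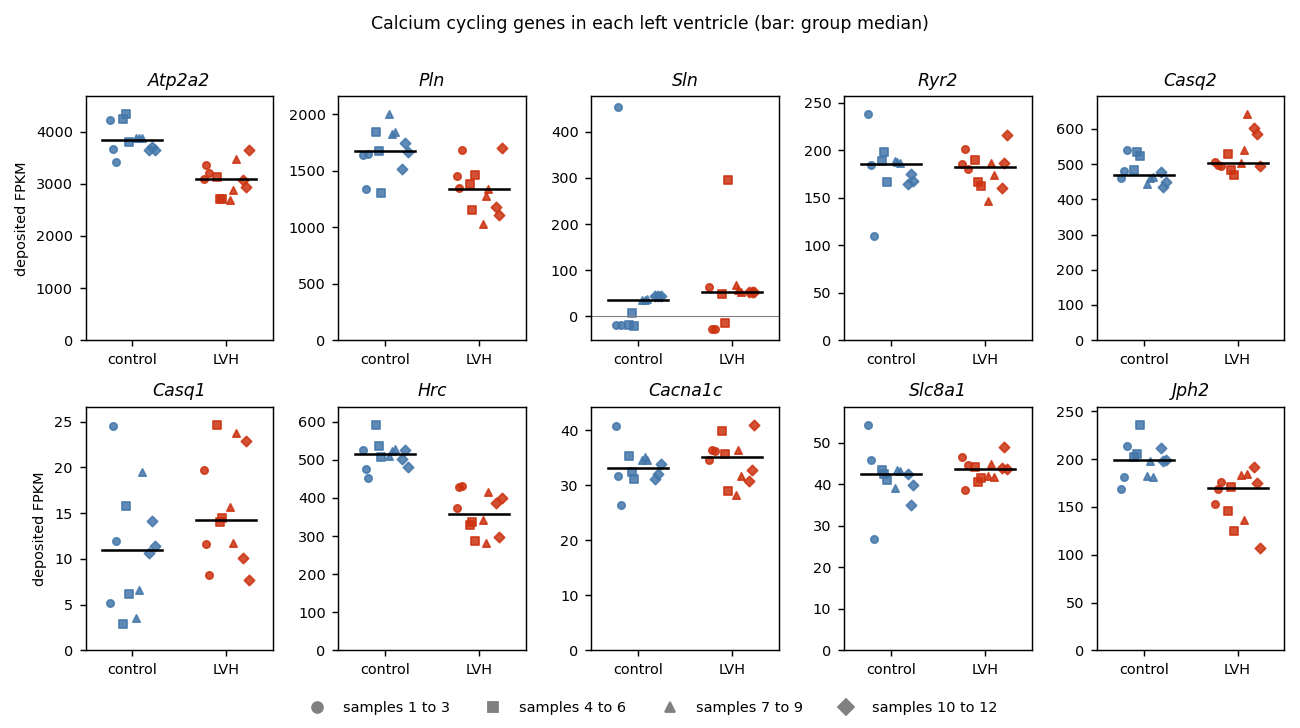
Deposited FPKM (vertical axes) of the 10 calcium cycling genes in each of 12 control and 12 hypertensive-LVH ventricles, with marker shapes for the 4 sets of samples and a bar at the group median. The *Hrc* values of the groups do not overlap, and *Sln* has values below 0 in both groups.

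**Figure D2:**
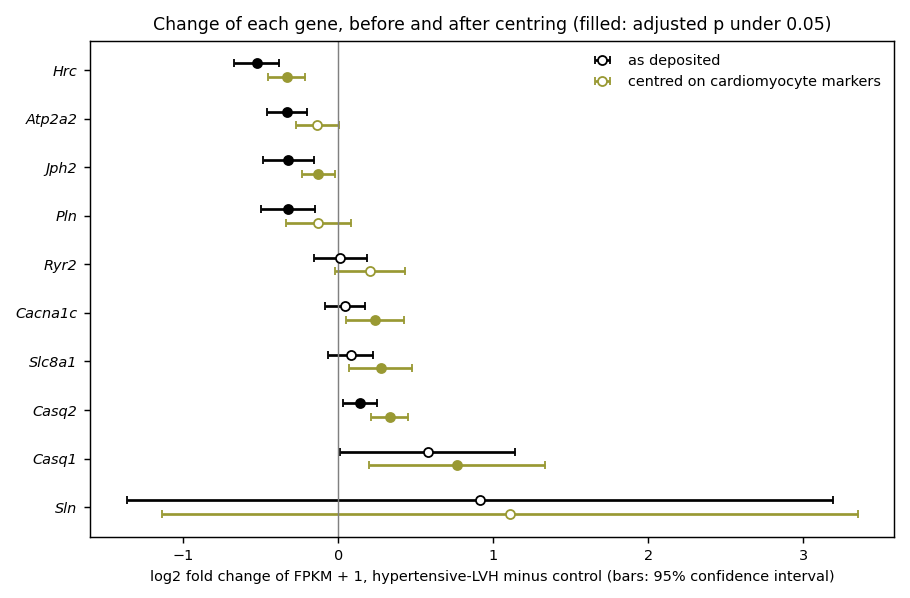
Log2 fold change of FPKM + 1 (horizontal axis, hypertensive-LVH minus control) of each gene with its 95% confidence interval, on the deposited values (black) and after centring every sample on 12 cardiomyocyte markers (green). Filled points passed an adjusted p of 0.05, and after centring *Hrc* and *Jph2* are the only filled points below 0.

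The start regions of 4 of the 5 changed genes could be read from RefSeq (GRCm38.p6), and they are shown because these genes changed in the same comparison, *Casq2* in the opposite direction to the other three. *Atp2a2* and *Sln* are named only. Each sequence is the 250 bases before the start, 5′ to 3′ on the strand of the gene, and capitals mark the CCAAT box, read on both strands. The windows are chr7:45335019-45335268 (plus strand) for *Hrc*, chr2:163397994-163398243 (minus) for *Jph2*, chr10:53337436-53337685 (plus) for *Pln* and chr3:102086165-102086414 (plus) for *Casq2*.
Hrc: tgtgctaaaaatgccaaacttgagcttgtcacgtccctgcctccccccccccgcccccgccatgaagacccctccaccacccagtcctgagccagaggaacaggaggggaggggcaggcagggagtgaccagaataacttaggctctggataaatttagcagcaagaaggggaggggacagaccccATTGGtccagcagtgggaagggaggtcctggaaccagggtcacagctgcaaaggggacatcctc
Jph2: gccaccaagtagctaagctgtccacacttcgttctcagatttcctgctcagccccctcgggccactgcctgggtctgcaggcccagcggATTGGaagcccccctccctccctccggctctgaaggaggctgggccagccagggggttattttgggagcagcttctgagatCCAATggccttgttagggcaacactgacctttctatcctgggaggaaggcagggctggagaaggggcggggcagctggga
Pln: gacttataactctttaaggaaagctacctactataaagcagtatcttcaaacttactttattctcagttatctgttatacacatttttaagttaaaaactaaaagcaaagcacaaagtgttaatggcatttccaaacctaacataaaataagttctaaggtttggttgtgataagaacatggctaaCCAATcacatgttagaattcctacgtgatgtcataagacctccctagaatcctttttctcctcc
Casq2: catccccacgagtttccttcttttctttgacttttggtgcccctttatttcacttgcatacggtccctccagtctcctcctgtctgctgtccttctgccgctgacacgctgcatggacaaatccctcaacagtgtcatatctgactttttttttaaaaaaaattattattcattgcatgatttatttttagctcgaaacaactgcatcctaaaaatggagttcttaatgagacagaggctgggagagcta

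The *Hrc* and *Pln* windows each held 1 CCAAT box, which began 64 bases before the start in both, the *Jph2* window held 2, at 161 and 80 bases before the start, and the *Casq2* window held 0. These distances are from the RefSeq starts, which for *Hrc* and *Pln* are not the GENCODE starts. From a second *Jph2* start the boxes stood at 181 and 100 bases. A window of *Cacna1c*, which was not called, held 1 box at 79 bases, and its other windows and those of *Casq1*, *Ryr2* and *Slc8a1* held 0. Of 32851 windows of the same length, 33.8% held a CCAAT box, and the box was chosen for display after the windows had been seen. The base composition of the windows differed, from 32.8% G and C in *Pln* and 41.6% in *Casq2* to 59.6% in *Hrc* and 62.0% in *Jph2*. The E box (CANNTG) stood in all 4 windows and in 66.2% of all windows. Of the 4, only *Pln* held the GATA site AGATAA, found in 9.99% of all windows, and the TATA box TATAAA, found in 12.4%. The GC box (GGGCGG) stood in the *Hrc* and *Jph2* windows and in 32.7% of all. The M-CAT element (CATTCC, in 12.6% of windows), the MEF2 consensus (0.508%) and the CArG box (1.47%) were not in any of the 4, which says only that these letters are not in these 250 bases. All motifs were searched on both strands, and no match is evidence of a factor.

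*Atp2a2* encodes SERCA2, the pump that fills the SR and relaxes the muscle. It lies on chromosome 5 (GRCm38, 122453513 to 122502225, minus strand) and stood at rank 13 of all genes by mean FPKM. In the hypertensive-LVH group the lowest, median and highest values were 2687, 3087 and 3647 FPKM, and in the control group they were 3413, 3836 and 4333 FPKM. The groups overlapped narrowly, with 10 of 12 hypertensive-LVH samples below the lowest control and all 12 below the control median. The group mean fell by 20.2%, from 3859 ± 277 to 3078 ± 310 FPKM (SD, n = 12 each). On the log2 scale the fold change was -0.33 ± 0.06 (SE) with an adjusted p of 3.3e-04 in limma. Before the adjustment the hypertensive-LVH mean was lower in all 4 sets, with differences of -439, -1294, -866 and -418 FPKM, and in samples 4 to 6 and 7 to 9 the groups did not overlap. The exact permutation test within the sets gave p = 1.25e-04 on these values. After centring on cardiomyocyte markers the log2 fold change of *Atp2a2* was -0.14 with an adjusted p of 0.080, and with quantile normalization it was -0.14 with an adjusted p of 0.12, so both ended the call.

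*Pln* encodes phospholamban, which inhibits SERCA2 until it is phosphorylated. The gene is on chromosome 10 (53337667 to 53345987, plus strand). Its lowest, median and highest values were 1026, 1342 and 1700 FPKM in the hypertensive-LVH group and 1304, 1673 and 2000 FPKM in the control group. Of the 12 hypertensive-LVH samples 10 lay below the control median, and 5 lay below the lowest control. The log2 fold change was -0.32 ± 0.08 with an adjusted p of 0.0053 in limma, and the mean fell by 19.7%. Before the adjustment the sets differed in size, with hypertensive-LVH minus control at 13.6 FPKM in the first set (samples 1 to 3), then -275, -760 and -316 FPKM in the sets that follow by number. Only in samples 7 to 9 did the groups not overlap, and without those samples the log2 fold change was -0.21 with an adjusted p of 0.094. Centred on cardiomyocyte markers it was -0.13 with an adjusted p of 0.26. The difference between the sets was itself not past the threshold (adjusted p of 0.31 for the interaction in limma).

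The ratio of *Pln* to *Atp2a2*, both in FPKM and so per length, had a median of 0.434 in the hypertensive-LVH group (range 0.378 to 0.538) and of 0.446 in the control group (0.343 to 0.516). The mean log2 ratio differed by 0.01 between the groups, which is less than its SD of 0.18 within each group. Without samples 4 to 6 the difference was -0.08. In the 4 sets in order, the deposited log2 difference was -0.05, -0.26, -0.65 and -0.33 for *Pln*. For *Atp2a2* it was -0.22, -0.53, -0.37 and -0.19. *Pln* thus fell less than *Atp2a2* in samples 1 to 6 and more in samples 7 to 12, and the mean ratio averages over these.

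*Sln* encodes sarcolipin, a second inhibitor of the pump, which in the mouse heart is made mainly in the atria. Its deposited values had a lowest, median and highest of -27.8, 52.1 and 296 FPKM in the hypertensive-LVH group and of -20.3, 35.2 and 453 FPKM in the control group, with 3 and 4 values below 0. The log2 fold change was 0.91 ± 1.11 with an adjusted p of 0.54 in limma, and its 95% interval ran from -1.37 to 3.19. Before the adjustment the differences lay in few samples. Above the lowest sample of its set, control sample 2 stood at 842 FPKM, hypertensive-LVH samples 6, 1 and 4 at 291, 165 and 61.2 FPKM, and control sample 5 at 24.7 FPKM. The other 19 samples were at most 8.45 FPKM above the lowest of their set. In samples 10 to 12 the spread of *Sln* before the adjustment was at most 0.60 FPKM, with a group difference of -0.36 FPKM, while the deposited group means there were 52.2 and 43.9 FPKM, so the difference between those means is not in the values before the adjustment.

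The samples high in *Sln* were high in atrial genes. *Myl7*, the atrial regulatory light chain, stood at 2625 FPKM above the lowest of its set in control sample 2, at 1097, 461 and 216 FPKM in hypertensive-LVH samples 6, 1 and 4, and at 90.1 FPKM in control sample 5. The *Myl7* value was 2.79 to 3.77 times the *Sln* value in these 5 samples. None of the other 19 samples exceeded 32.8 FPKM of *Myl7*, and among those 19 the correlation of *Sln* with *Myl7* was r = 0.90 and rho = 0.96, given as a description. On the deposited values, with the means of each group and set removed, *Sln* followed the mean log2 level of 12 atrial markers over the 24 samples with r = 0.98 (permutation p = 0.0021, adjusted 0.0042) and rho = 0.90 (p = 0.0034, adjusted 0.0068), and r stayed at 0.98 without the 2 samples farthest from the median. *Bmp10* of the atrial list was not analysed here. The 3 hypertensive-LVH and 2 control samples with *Sln* over 10 FPKM above the lowest of their set belonged to samples 1 to 6. The ratio of *Sln* to *Pln* had a median of 4.43% in 9 hypertensive-LVH samples and of 2.26% in 8 control samples, with the negative values left out. That ratio rested on the offset as well, and the within-group range in the control samples was 0.385% to 33.8%.

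**Figure D3:**
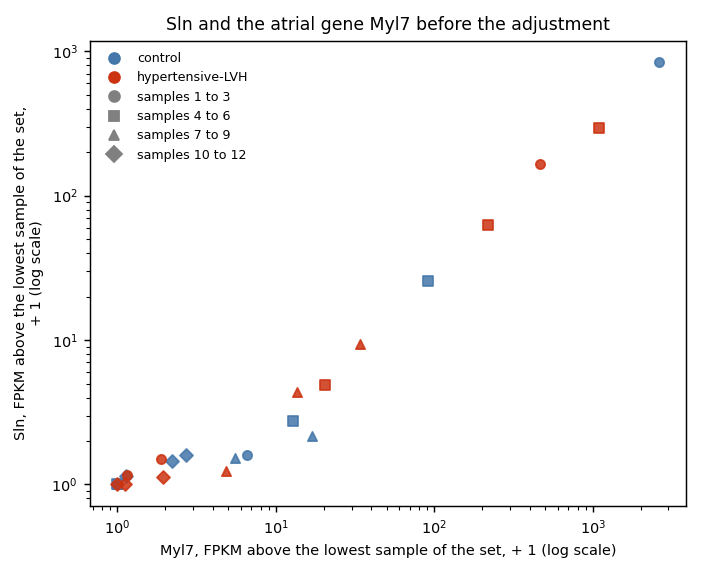
*Sln* against *Myl7* in each sample before the adjustment, both as FPKM above the lowest sample of the set plus 1 on log scales, with colours for the groups and shapes for the sets. The 5 samples with the highest *Sln* are the 5 with the highest *Myl7*, and they belong to both groups.

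*Ryr2* encodes the release channel of the SR. The lowest, median and highest of its values were 147, 183 and 216 FPKM in the hypertensive-LVH group and 110, 186 and 238 FPKM in the control group. The groups overlapped almost wholly, and both control extremes lay outside the hypertensive-LVH range. The log2 fold change was 0.01 ± 0.08, with a 95% interval from -0.16 to 0.18 and an adjusted p of 0.92 in limma. Before the adjustment the difference was 13.8, -7.63, -7.89 and 15.9 FPKM in the 4 sets. Set against the pump, *Ryr2* stood at a median of 5.97% of the *Atp2a2* FPKM in the hypertensive-LVH group and at 4.65% in the control group, a log2 difference of 0.34 with an SD of 0.11 and 0.19 within the groups. Centred on cardiomyocyte markers, the log2 fold change of *Ryr2* was 0.20 with an adjusted p of 0.10.

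Of the 3 genes for calcium-binding proteins in the SR, *Hrc* was lower, *Casq2* was slightly higher and *Casq1* did not pass the test. *Hrc* encodes the histidine-rich calcium-binding protein, which binds both SERCA2 and triadin. It is on chromosome 7 (45335290 to 45338974, plus strand). Its lowest, median and highest values were 281, 358 and 431 FPKM in the hypertensive-LVH group and 453, 517 and 593 FPKM in the control group. As deposited, no hypertensive-LVH sample reached the lowest control, and such a separation in the lower direction was found for 0.485% of the genes tested. The mean fell by 30.0%, from 514 ± 35.3 to 359 ± 54.9 FPKM (SD, n = 12 each). This was a log2 fold change of -0.53 ± 0.07 with an adjusted p of 7.9e-06 in limma. Before the adjustment *Hrc* was lower in all 4 sets, with differences of -29.7, -233, -169 and -144 FPKM, and the groups did not overlap in the last 3 of them. In samples 1 to 3 the groups overlapped before the adjustment, while the deposited difference there was -73.7 FPKM without overlap. The full separation of the groups is thus one of the deposited values only. Leaving out hypertensive-LVH sample 6 or 8 gave a log2 fold change of -0.498 or -0.496, just under the fold threshold. After centring on cardiomyocyte markers the log2 fold change of *Hrc* was -0.33 with an adjusted p of 1.6e-04.

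*Casq2* encodes cardiac calsequestrin, the main calcium store of the SR. It lies on chromosome 3 (102086415 to 102146514, plus strand). The lowest, median and highest of its values were 470, 504 and 641 FPKM in the hypertensive-LVH group and 434, 470 and 539 FPKM in the control group. The groups overlapped, with 4 hypertensive-LVH samples above the highest control and 11 of 12 above the control median. Its log2 fold change was 0.14 ± 0.05 with an adjusted p of 0.044 in limma. With the set as a term in the model the adjusted p was 0.070, and with median-ratio scaling it was 0.26, so both ended the call. The rise came from samples 7 to 12. Before the adjustment the hypertensive-LVH minus control difference was -2.24 and -25.9 FPKM in samples 1 to 3 and 4 to 6, with overlap, and 98.6 and 106 FPKM in samples 7 to 9 and 10 to 12, without overlap. The interaction of group and set had an unadjusted p of 0.033 and an adjusted p of 0.16 in limma. Without samples 7 to 9 the adjusted p of *Casq2* was 0.27, and without samples 10 to 12 it was 0.30. The call also depended on single mice, and the highest adjusted p was 0.075 with 1 mouse left out. Centred on cardiomyocyte markers its log2 fold change was 0.33, beside a median of 0.25 over all genes tested.

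*Casq1* encodes the calsequestrin of fast skeletal muscle. Its lowest, median and highest values were 7.65, 14.2 and 24.7 FPKM in the hypertensive-LVH group and 2.89, 11.0 and 24.5 FPKM in the control group, which is far under the level of *Casq2*. The groups overlapped over most of their range. Its log2 fold change was 0.58 ± 0.27, with a 95% interval from 0.01 to 1.14 and an adjusted p of 0.11 in limma. After centring on cardiomyocyte markers it was 0.77 with an adjusted p of 0.022, and without control sample 2 the adjusted p was 0.040. The relation of *Casq1* to skeletal muscle markers across the samples did not pass the test. Over 9 markers r was 0.27 (permutation p = 0.28, adjusted 0.28) and rho was 0.18 (p = 0.45, adjusted 0.45), and r was 0.14 without the 2 farthest samples. The summed level of those 9 markers was 5.82 to 18.8 FPKM in the hypertensive-LVH group and 7.58 to 12.5 FPKM in the control group. *Myh1*, *Myh2*, *Myh4*, *Myh8* and *Ryr1* of that list were not analysed here. *Casq1* stood at a median of 2.99% of *Casq2* in the hypertensive-LVH group and of 2.22% in the control group, a log2 difference of 0.51 that was smaller than its SDs of 0.54 and 0.96 within the groups. Without samples 4 to 6 the medians were 2.35% and 2.23%, and the log2 difference was 0.20.

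*Cacna1c* encodes the pore of the cardiac L-type channel, through which calcium enters. The lowest, median and highest of its values were 28.2, 35.1 and 41.0 FPKM in the hypertensive-LVH group and 26.4, 33.1 and 40.8 FPKM in the control group. The ranges were nearly the same, and the log2 fold change was 0.04 ± 0.06 with a 95% interval from -0.08 to 0.17 (adjusted p of 0.61 in limma). *Slc8a1* encodes the sodium-calcium exchanger NCX1, the main route of calcium out of the cell. Its lowest, median and highest values were 38.6, 43.7 and 48.9 FPKM in the hypertensive-LVH group and 26.9, 42.5 and 54.4 FPKM in the control group. The hypertensive-LVH samples lay within the control range, and the log2 fold change was 0.08 ± 0.07 with a 95% interval from -0.06 to 0.22 (adjusted p of 0.39 in limma). Before the adjustment the *Slc8a1* difference was 4.30 and 7.00 FPKM in samples 7 to 9 and 10 to 12, without overlap, and -1.39 and 1.80 FPKM in samples 1 to 3 and 4 to 6. Against the pump, *Slc8a1* stood at 1.46% of *Atp2a2* in the hypertensive-LVH group and at 1.09% in the control group (medians), a log2 difference of 0.41 with SDs of 0.17 and 0.19. Centred on cardiomyocyte markers, *Cacna1c* was at 0.24 (adjusted p of 0.032) and *Slc8a1* at 0.27 (adjusted p of 0.022). Both were close to the median of all genes tested after that centring, 0.25.

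*Jph2* encodes junctophilin 2, the tether of the dyad. It lies on chromosome 2 (163336242 to 163397993, minus strand). The lowest, median and highest of its values were 107, 170 and 192 FPKM in the hypertensive-LVH group and 169, 199 and 236 FPKM in the control group. The groups overlapped, with all 12 hypertensive-LVH samples below the control median and 5 below the lowest control. In limma it was lower by a log2 fold change of -0.32 ± 0.08 with an adjusted p of 0.0035. Before the adjustment *Jph2* was lower in all 4 sets, with differences of -20.3, -71.6, -24.6 and -48.1 FPKM, and the groups did not overlap in samples 4 to 6 and 7 to 9. Without samples 4 to 6 the log2 fold change was -0.25 with an adjusted p of 0.064. Centred on cardiomyocyte markers it was -0.13 with an adjusted p of 0.035.

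**Figure D4:**
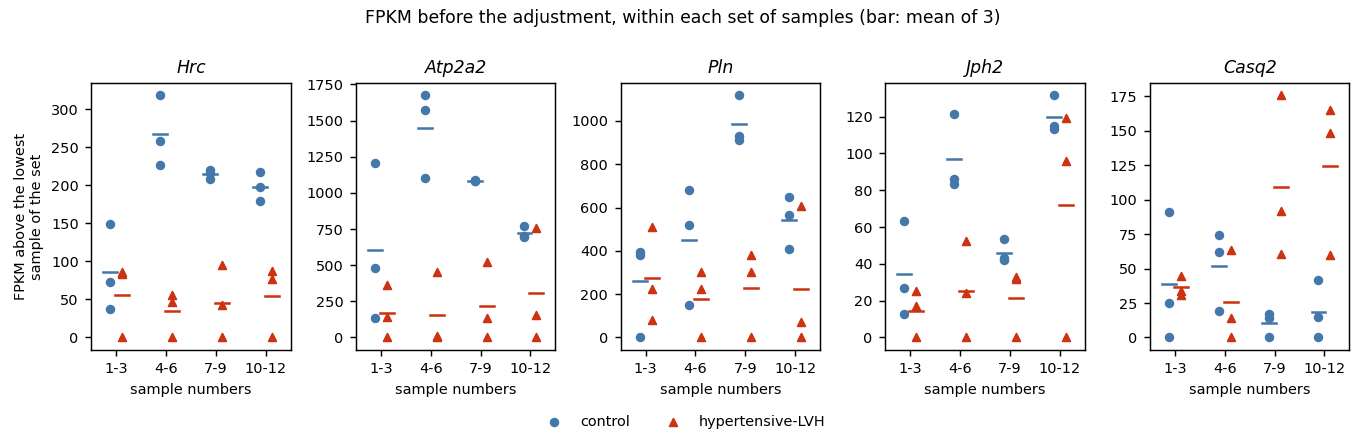
FPKM of the 5 changed genes before the adjustment, as the height above the lowest sample of each set (vertical axes), for control (circles) and hypertensive-LVH (triangles) samples of the 4 sets, with bars at the means of 3 samples. *Hrc*, *Atp2a2* and *Jph2* have lower hypertensive-LVH means in all 4 sets, and *Casq2* has higher ones in samples 7 to 12 only.

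The exact permutation of the group labels within the sets, on FPKM as deposited, gave an unadjusted p under 0.05 for the 5 genes that limma called. Of all genes tested, 40.9% had such an unadjusted p, while the limma calls rest on an adjusted p. The permutation p-values were 1.25e-05 for *Hrc*, which is the smallest that the test can give, 2.5e-05 for *Atp2a2*, 3.75e-04 for *Jph2*, 0.0029 for *Pln* and 0.020 for *Casq2*. The assumed form of the adjustment holds a group coefficient, so the deposited values may carry the group labels. Tests on the deposited values, limma included, may therefore give p-values that are too small. On values before the adjustment the same 5 genes had an unadjusted permutation p under 0.05, with 7.5e-05 for *Hrc*, 3.75e-04 for *Jph2*, 0.0057 for *Pln* and 0.038 for *Casq2*. The share of all genes that do so before the adjustment is not known, as only listed genes were recovered. The interaction of group and set passed an adjusted p of 0.05 in limma for 0 of the 10 genes, against 7.49% of all genes tested, and had an unadjusted p under 0.05 for 2, *Casq2* (0.033) and *Hrc* (0.048).

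Relations between the genes across samples did not pass the correction. Of the 45 pairs, with group and set means removed (n = 24), 0 passed an adjusted p of 0.05 by permutation of Spearman's rho and 9 had an unadjusted p under 0.05. The pair with the lowest p for rho was *Atp2a2* and *Ryr2* (rho = 0.75, p = 0.0031, adjusted 0.14; r = 0.69, p = 0.0088, adjusted 0.17; r = 0.66 without the 2 farthest samples). *Ryr2* and *Cacna1c*, the channels of release and entry, had the lowest p for r, with rho = 0.71 (permutation p = 0.0079, adjusted 0.15) and r = 0.84 (p = 0.0021, adjusted 0.095), and r = 0.81 without the 2 farthest samples. *Atp2a2* and *Hrc*, the genes with the lowest adjusted p between the groups, had rho = 0.63 (permutation p = 0.020, adjusted 0.18) and r = 0.68 (p = 0.026, adjusted 0.18), with r = 0.81 without the 2 farthest samples.

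A wider list of 75 partners of these proteins was examined by role. Of these, 72 were in the table and 68 were tested, and 12 were higher and 9 lower in the hypertensive-LVH group, or 30.9% against the 33.5% of all genes. The median log2 fold change of the 68 was 0.03. After centring on cardiomyocyte markers 33 were higher and 4 lower, with quantile normalization 8 were higher and 11 lower, and with median-ratio scaling 10 were higher and 12 lower. Over all genes tested the higher and lower counts were 7975 and 496 after centring, 1922 and 2930 with quantile normalization, and 2546 and 2132 with median-ratio scaling. The balance of the directions thus depended on the scaling, for the partners and for all genes. The counts by role that follow are of few genes each and are to be read against the shares over all genes tested, 20.9% higher and 12.6% lower. They are given as a description, and no role was tested against the rest.

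Of the genes of calcium entry at the surface, the longest of these lists, 6 of 21 were higher and 3 lower (42.9%, against 33.5% of all genes). The beta subunits, which carry the channel pore to the membrane, did not move together. *Cacnb2*, the main cardiac one, was lower, with a range of 15.1 to 21.7 FPKM in the hypertensive-LVH group and 19.1 to 28.9 FPKM in the control group (log2 fold change -0.33 ± 0.07, adjusted p of 0.0012 in limma). *Cacnb3* and *Cacnb1* were higher, by 0.71 ± 0.16 from a control median of 2.90 FPKM and by 0.36 ± 0.08 from 3.52 FPKM on the log2 scale. *Cacna1s*, the pore of the skeletal muscle channel, was lower at -0.65 ± 0.12 (adjusted p of 1.7e-04 in limma), with medians of 2.08 FPKM in the hypertensive-LVH group and 3.89 FPKM in the control group. Of the small GTPases that inhibit the L-type channel, *Rem1* was lower (-0.36 ± 0.10) and *Gem* was higher (0.40 ± 0.15). *Stim2*, a sensor of the calcium store, and *Orai2*, a channel that such sensors open, were both higher by 0.30 on the log2 scale (SE 0.08 and 0.09), from control medians of 5.68 and 1.12 FPKM.

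Among regulators of the pump and other pumps, 1 of 15 genes was higher and 3 were lower (26.7%). *Camk2a* and *Prkaca*, kinases of the families that phosphorylate phospholamban, were lower at -0.38 ± 0.06 (adjusted p of 4.4e-05 in limma) and -0.29 ± 0.06 (adjusted p of 4.2e-04). *Prkaca* spanned 113 to 166 FPKM in hypertensive-LVH samples and 146 to 194 FPKM in control samples, and all 12 hypertensive-LVH samples were below the control median. *Camk2d*, the main cardiac isoform of that kinase, had a log2 fold change of -0.05 (adjusted p of 0.42). Among release channels and their partners 1 of 13 was higher and 1 lower, and among luminal and dyad proteins 1 of 8 was higher, *Bin1*, which shapes the transverse tubules (0.36 ± 0.13, adjusted p of 0.038 in limma). Of the mitochondrial uptake genes 1 of 6 was higher and 2 were lower. *Letm1*, a protein of the inner mitochondrial membrane, was lower at -0.31 ± 0.05 (adjusted p of 2.3e-05 in limma), from a control median of 47.0 to 37.8 FPKM. Of 5 extrusion genes tested, 2 were higher and 0 lower in limma.

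The close relatives of the 10 genes were far less abundant and mostly did not pass the test. *Atp2a1*, the skeletal muscle pump, had medians of 0.512 and 0.421 FPKM in the hypertensive-LVH and control groups, and *Atp2a3*, found in other cell types, 5.97 and 6.01 FPKM (adjusted p of 0.60 and 0.19 in limma). *Ryr3* had medians of 0.141 and 0.117 FPKM, *Jph1* 7.77 and 8.22 FPKM, and *Mrln*, the micropeptide myoregulin, 0.514 and 0.589 FPKM, with adjusted p of 0.61, 0.64 and 0.76. *Slc8a2*, a second sodium-calcium exchanger, was higher at 0.26 ± 0.07 (adjusted p of 0.0033 in limma), with medians of 0.649 and 0.369 FPKM, which is a small fraction of *Slc8a1*. *Slc8a3* was under the filter. *Ryr1* and *Strit1* were not analysed here.

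**Figure D5:**
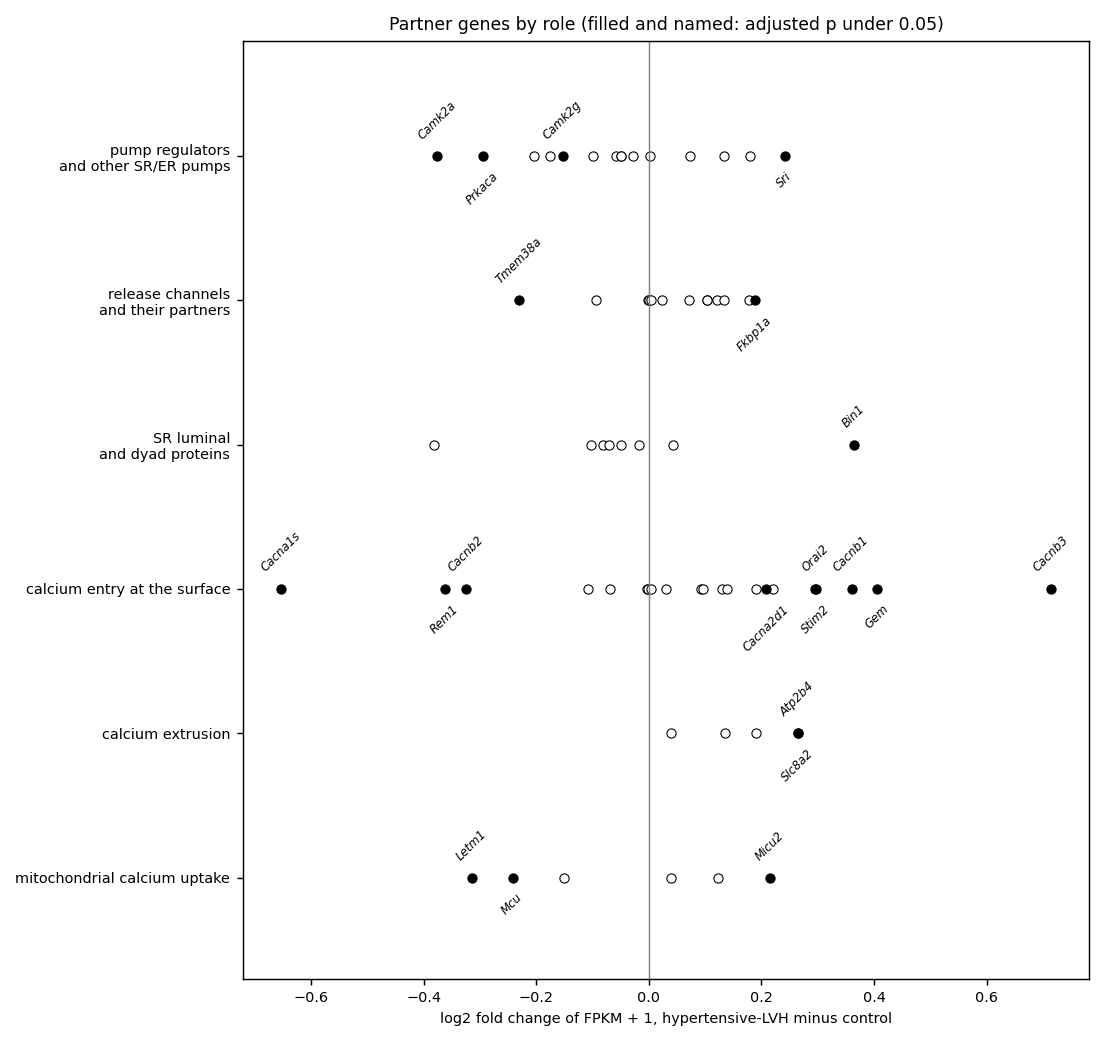
Log2 fold change of FPKM + 1 (horizontal axis, hypertensive-LVH minus control) of the 68 partner genes tested, in rows by role. Filled and named points passed an adjusted p of 0.05, and they fall on both sides of 0 in the rows of calcium entry, pump regulators, release channels and mitochondrial uptake.

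Markers of some other cell types also differed between the groups in these bulk samples. Whether cell numbers or RNA per cell changed was not tested. The part of other cell types in the results above was not tested beyond the centring on cardiomyocyte markers. The counts that follow are to be read against 20.9% higher and 12.6% lower over all genes tested. The summed level of the 12 cardiomyocyte markers was 51220 to 75947 FPKM in the hypertensive-LVH group and 67176 to 91310 FPKM in the control group, with *Tnni3* (cardiac troponin I) showing the largest decrease at -0.63 and *Mybpc3* against the list at 0.21. All 8 macrophage markers were higher, with summed levels of 320 to 913 against 234 to 525 FPKM, and so were all 5 red blood cell markers (779 to 6443 against 92.2 to 2949 FPKM). Of 8 fibroblast markers 5 were higher (745 to 2767 against 200 to 1074 FPKM), of 7 endothelial markers 1 was higher and 1 lower, and of 7 smooth muscle and pericyte markers 2 were higher and 1 lower. Of 5 hypertrophy markers 4 were higher, among them *Nppa*, the gene of atrial natriuretic peptide, with medians of 1827 and -51.1 FPKM in the hypertensive-LVH and control groups. As 7 of its 12 control values were below 0 as deposited, no fold is given for it. Before the adjustment the *Nppa* difference was -1327 FPKM in samples 1 to 3, then 2310, 2466 and 1011 FPKM in the sets that follow by number. Among 12 atrial markers 2 were higher, with *Nppa* counted again, and 2 lower, and among 9 skeletal muscle markers 1 was higher and 3 were lower.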

How the data were processed

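RNA selected with oligo(dT) from 24 left ventricles, 12 per group, was sequenced. The paper lists 4 more samples per group, which were not analysed here. Groups were taken from the labels. The authors deposited 1 value per gene and sample, named as FPKM. HISAT, Bowtie2 and RSEM are named in the submitters' processing notes, and versions, genome build and annotation are not given in the sources used here. The deposited values hold negative numbers and were treated as a score on the FPKM scale. Between 215 and 541 genes were tied within each pair of samples of a set and group and 0 in pairs from different sets, counted over the 14634 genes not in whole hundredths throughout, which gave the 4 sets. No step of this kind was found in the authors' methods. Each gene's scale in a set was recovered as the factor that turned its values into steps of 0.01 FPKM (141 of 152 listed genes tried). The form of the adjustment was assumed. Differences between the groups also rested on a group coefficient for each gene, searched so that the spacing between the groups fell on the same steps.

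Negative values were set to 0 for log2(FPKM + 1), and the 14026 genes whose mean reached 0.1 were tested with limma 3.58.1 (intensity trend, R 4.3.3) and Benjamini-Hochberg adjustment. A pseudocount of 1 understates changes of low genes. Exact permutation tests used all 160000 relabelings within sets, and correlations used 100000 permutations within group and set, with adjustment over 45 pairs or over 2 tissue relations. All tests were two-sided. Ratios, figures and recovery used Python 3.11.15, numpy 2.4.6, pandas 2.3.3, scipy 1.17.1 and matplotlib 3.10.9. The procedures were tested on simulated data. The study's methods call the samples of a group biological replicates.

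The 10 genes and all gene lists were chosen with earlier results of these data known. Named besides the 10 were, of the partners, the 6 past the threshold with the largest change in each direction and the isoform relatives, and of each marker list genes with the largest change or against the list. *Camk2d* was named after its value was seen. Gene positions are from GENCODE vM21 (GRCm38), and start regions from RefSeq. Alternatives were no filter or a minimum mean of 1, a pseudocount of 0.1, quantile and median-ratio scaling, centring on cardiomyocyte markers, no trend, a Wilcoxon rank-sum test, a replicate block, set as a term, and leaving out each set or mouse. Tests before the adjustment were added after the data had been seen.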

Additional observations from a re-analysis of the deposited data

How the results depend on the processing

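Of the 38 alternative fits, *Hrc* passed the adjusted p in 38, *Jph2* in 37, *Atp2a2* and *Pln* in 36 each, *Casq2* in 20, *Casq1* in 2, *Cacna1c* and *Slc8a1* in 1 each and *Ryr2* and *Sln* in 0, with log2 fold changes from -0.62 to -0.33 for *Hrc*. The count of the 10 genes past the adjusted p was 4 to 6 when each mouse was left out and 3 without samples 7 to 9. The count that also passed the fold threshold was 0 to 2 when each mouse was left out (0 without hypertensive-LVH sample 6 or 8, 2 without control sample 2, where *Casq1* passed too), 0 with quantile normalization and 0 without samples 4 to 6, and after centring on cardiomyocyte markers the 1 gene was *Casq1*, not *Hrc*. The partners past the adjusted p numbered 17 to 23 when each mouse was left out, and 37 (33 higher, 4 lower) after that centring, which moved the median over all tested genes from 0.05 to 0.25 on the log2 scale. After that centring 4 of the 10 genes were higher and 2 lower, against 1 and 4 as deposited. Over all 14026 genes tested 7975 were then higher and 496 lower, so the move to higher values was not particular to the 10. *Casq2* lost its call with median-ratio scaling (adjusted p of 0.26), with the set as a term (0.070) and in 13 of 24 fits that left out 1 mouse (control samples 1, 4 and 7 to 12 and hypertensive-LVH samples 4 and 8 to 11). The log2 fold change of *Ryr2* changed sign to -0.026 with median-ratio scaling, to -0.036 without samples 1 to 3 and to -0.031 without samples 10 to 12, and on leaving out 1 mouse it ran from -0.050 (without control sample 3) to 0.051, below 0 also without hypertensive-LVH sample 2 or 12. The mean difference of *Sln* changed sign to -34.5 FPKM without samples 4 to 6 and to -28.2 FPKM before the adjustment. *Casq1* against *Mylpf* alone gave r = -0.32, and with only group means removed 3 pairs of genes passed by rho (*Atp2a2* with *Ryr2*, *Atp2a2* with *Hrc*, *Ryr2* with *Cacna1c*) and 7 by r (these and *Atp2a2* with *Cacna1c*, *Ryr2* with *Slc8a1*, *Ryr2* with *Jph2* and *Cacna1c* with *Slc8a1*). In that setting, leaving out the 2 farthest samples took r from 0.76 to 0.23 for *Ryr2* with *Slc8a1*. For *Cacna1c* with *Slc8a1* it went from 0.54 to 0.34. It stayed near its value for *Atp2a2* with *Cacna1c* (0.61 to 0.62) and *Ryr2* with *Jph2* (-0.47 to -0.51). The causes of the changes named here were not tested. Same-numbered samples of the groups did not deviate together (correlations from -0.56 to -0.0011, and 0 of 12 samples correlated best with its own number), so the numbers were not read as pairs. With the replicate number as a block 4 of the 10 genes and 15 partners passed, *Hrc* alone also passed the fold threshold, and *Casq2* had an adjusted p of 0.13. The depth of the samples is not known, and for *Sln* the deposited level is uncertain.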
